A study of Homo sapiens with 16 samples.

Results

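The transcription factor ATF4, 8 genes it is known to switch on and DDIT4, a stress gene that ATF4 and several other factors control, were followed in U2OS cells, an established human osteosarcoma line, given as sarcoma in the labels. The 10 genes were ATF4, DDIT3, CHAC1, TRIB3, ASNS, PSAT1, SLC7A11, SLC7A5, DDIT4 and SESN2. They were taken by symbol, with earlier results of these data known, and all 10 were found among the 60666 genes listed for each library. The study asked how the PIP4K kinases, which phosphorylate the lipid phosphatidylinositol 5-phosphate, affect gene expression and splicing. Cells carried stable short hairpin RNAs against PIP4K2A and PIP4K2B together (shPIP4K2A/2B, here the double knockdown), against PIP4K2A alone (shPIP4K2A), against PIP4K2B alone (shPIP4K2B), or the vector plko.puro without a hairpin. Each of these 4 lines was collected 6 h after ultraviolet C light of 30 J/m2 or left untreated, which gave 8 groups of 2 libraries. All cells were grown in high glucose medium with serum and puromycin, and no group carried a hairpin without a target. Loss of a kinase, other effects of a hairpin and differences between stable lines therefore cannot be told apart.

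ATF4 is the effector of the integrated stress response, in which kinases that sense amino acid shortage, misfolded protein, viral RNA or haem shortage phosphorylate the initiation factor eIF2. Bulk translation then falls while ATF4 protein is made from an mRNA with upstream reading frames, and ATF4 switches on genes for amino acid supply, for redox balance and for the end of the response. DDIT4 (also REDD1) and SESN2 restrain the growth kinase mTORC1, and both are also reached by p53. UV-C light damages DNA, blocks RNA polymerase and activates the eIF2 kinase GCN2.

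One untreated empty-vector library, replicate 1, stood apart with 1278298 expected counts, of which 14.6% were mitochondrial. It was set aside by the rule that chose the genes, so the untreated empty-vector group was 1 library and was assumed to vary like the others. The other 15 libraries held 28002912 to 39873512 expected counts with 2.20 to 3.43% mitochondrial. The library set aside held 62 counts of DDIT4, which came to 48.5 CPM (counts per 1000000 counts) and, on the per-length scale of TPM (transcripts per 1000000 transcripts), 42.6 TPM, against 91.0 CPM and 42.5 TPM in the other untreated vector library. ATF4 was at 50.6 TPM there against 260 TPM, and CHAC1 at 29.55 against 9.87 TPM. The near-equal TPM of DDIT4 is therefore no sign that the 2 libraries are alike. In the library set aside PIP4K2A stood at 15.6 CPM, within the range of the libraries with a hairpin against that gene, although it is labelled as vector. PIP4K2B stood at 91.5 CPM, within the range of those without a hairpin against it. GAPDH was at 771 CPM against 6184 CPM in the other untreated vector library, so levels there differ widely and do not settle its identity. In the libraries kept, PIP4K2A was at 7.48 to 22.9 CPM with a hairpin against it and at 43.2 to 62.9 CPM without. PIP4K2B was at 11.4 to 26.6 CPM with a hairpin against it and at 65.1 to 107 CPM without. These ranges pool lines and treatments, between which the level of the targeted gene also differed, as given below. The mesenchymal gene VIM was at 1907 CPM or more in each of the 15 libraries, and of the 5 other genes of the mesenchymal and osteoblast list COL1A1 was at 1354 to 3265 CPM, RUNX2 at 14.3 to 60.1 CPM and ALPL at 2.25 to 7.69 CPM, while COL1A2 and SP7 stayed under 1 CPM. Of 6 blood genes 4 stayed under 1 CPM in all 15 libraries, as did 2 of 3 endothelial genes. The 6 epithelial genes summed to 553 to 933 CPM in knockdown cells after UV and 323 to 324 CPM in vector cells after UV. They summed to 406 to 495 CPM in untreated knockdown cells and 268 CPM in the untreated vector library, mostly KRT8 and KRT18, with KRT19 under 0.2 CPM. The part of this difference in the results on the knockdowns was not tested.

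Per length, ATF4 mRNA was the highest of the 10 genes, with a median of 229 TPM over 15 libraries and a range of 179 to 318 TPM. SLC7A5, the light chain of a carrier of large neutral amino acids, followed at a median of 119 TPM, and ASNS, the enzyme that makes asparagine, at 71.6 TPM. PSAT1, DDIT4, SLC7A11 and CHAC1 had medians of 22.7, 14.1, 12.2 and 9.36 TPM, and TRIB3, SESN2 and DDIT3 had 5.19, 4.63 and 3.07 TPM. The range of ATF4 lay above that of SLC7A5 and the range of ASNS above that of PSAT1, while the ranges of the other neighbours in this order overlapped. DDIT3 rested on the fewest reads, with 80.6 expected counts in its lowest library, and its gene overlaps MARS and MBD6 on the opposite strand, where an overlapping gene reached 269 CPM. DDIT4 (chr10:72273920-72276036, plus strand) and SLC7A11 each overlap an antisense gene, and ASNS (chr7:97852118-97872542, minus strand) overlaps genes of up to 9.95 CPM. Positions are those of GENCODE 29 on GRCh38. The strand setting of the counting is not given in the sources used here, so reads of these pairs could not be told apart.

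The region just before the start of a gene is where ATF4 acts on its targets, often at a C/EBP-ATF response element whose core reads TGATGNAA. The core was searched on both strands in the 250 bases before each RefSeq transcript start on GRCh38.p14, which the table held for 9 of the 10 genes, all but SLC7A11. It was present in ASNS and in CHAC1, 2 of 9 genes, and in 3.14% of 35116 such windows. The windows of ASNS (chr7:97872409-97872658, minus strand) and CHAC1 (chr15:40953221-40953470, plus strand) are shown with the core in capitals. That of DDIT4 (chr10:72273674-72273923, plus strand) held no core and is shown because DDIT4 had the lowest fold change of the 10 genes in each untreated knockdown. In ASNS the core began 68 bases before the start, and in CHAC1, where it lies on the opposite strand, 209 bases before it. A match is a description of these letters, and the ER stress element, CCAAT and CCACG with 9 bases between them, was found in 0 of the 9 genes and in 0.0740% of all windows.
ASNS: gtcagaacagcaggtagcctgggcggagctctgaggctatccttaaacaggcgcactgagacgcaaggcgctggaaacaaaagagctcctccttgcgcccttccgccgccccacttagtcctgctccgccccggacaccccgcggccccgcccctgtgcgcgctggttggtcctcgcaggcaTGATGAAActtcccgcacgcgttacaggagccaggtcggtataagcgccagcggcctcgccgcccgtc
CHAC1: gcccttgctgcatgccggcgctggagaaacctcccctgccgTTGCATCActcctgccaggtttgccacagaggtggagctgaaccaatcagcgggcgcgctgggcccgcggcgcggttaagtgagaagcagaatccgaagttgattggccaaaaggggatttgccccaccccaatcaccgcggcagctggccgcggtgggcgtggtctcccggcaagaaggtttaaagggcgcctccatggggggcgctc
DDIT4: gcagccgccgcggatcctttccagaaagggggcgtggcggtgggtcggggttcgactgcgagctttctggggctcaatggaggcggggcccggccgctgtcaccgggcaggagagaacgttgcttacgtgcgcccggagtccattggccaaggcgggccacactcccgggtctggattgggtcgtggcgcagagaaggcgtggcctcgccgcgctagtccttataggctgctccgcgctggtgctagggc

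Levels below are normalised CPM, that is CPM divided by a TMM scaling factor of each library, and the plot of levels shows them for the 15 libraries. A gene was called at an adjusted p under 0.05 in edgeR's quasi-likelihood test with Benjamini-Hochberg adjustment over 22597 genes, and all 10 genes passed the filter on low counts. The labels do not say whether the 2 libraries of a group are separate cultures, and the spread behind the p-values may be only technical. In bulk RNA, fewer cells with a transcript and less of it per cell cannot be told apart.

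**Figure D1:**
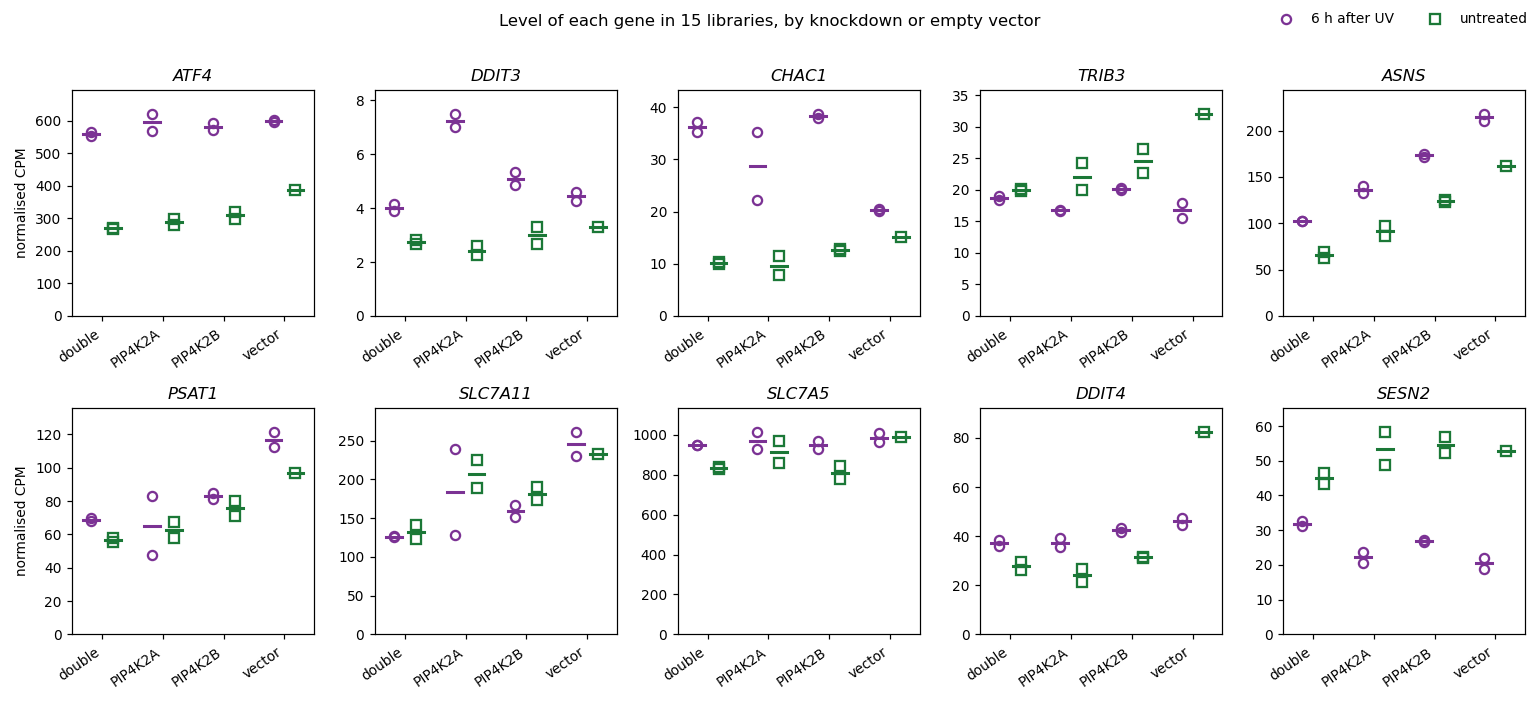
Normalised CPM (vertical axes, linear from 0) of the 10 genes in 15 libraries, by double, PIP4K2A or PIP4K2B knockdown or empty vector (horizontal axes). Purple circles are libraries 6 h after UV, green squares untreated libraries, bars group means. DDIT4 stood at 82.3 in the untreated vector library and at 47.5 or less in the others. ASNS was lowest in the double knockdown among UV-treated and among untreated libraries.

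In untreated cells DDIT4 and ASNS were lower than in the vector library in each of the 3 hairpin lines, and no gene of the 10 was called higher. In the double knockdown 4 of 10 genes were called lower (2.96% of all genes tested) and 0 higher (3.24%). In the PIP4K2A knockdown 4 were called lower (4.13%) and 0 higher (3.71%), and in the PIP4K2B knockdown 2 lower (4.99%) and 0 higher (5.26%). These comparisons share the same single vector library and are given side by side. The median log2 fold change of the 10 genes was -0.62, -0.49 and -0.34 in the double, PIP4K2A and PIP4K2B knockdowns, while that of all genes tested was -0.01, 0.01 and 0.00.

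DDIT4, whose product restrains mTORC1 through the TSC complex, had 26.1 and 29.7 normalised CPM in the double knockdown, 21.5 and 26.8 in the PIP4K2A knockdown and 31.0 and 31.7 in the PIP4K2B knockdown, against 82.3 in the untreated vector library. The 6 knockdown libraries thus lay below the vector library with no overlap. DDIT4 was 2.95-fold lower in the double knockdown (log2 fold change -1.56, SE 0.129, adjusted p = 3.29e-05), 3.41-fold lower in the PIP4K2A knockdown (-1.77, SE 0.129, adjusted p = 9.4e-06) and 2.63-fold lower in the PIP4K2B knockdown (-1.39, SE 0.129, adjusted p = 3.32e-05). Counted from the most negative fold change, it ranked 476, 318 and 749 of 22597 genes. With scaling to ribosomal protein genes, which moved the median of all genes by 0.26, 0.32 and 0.15, the values were -1.29, -1.47 and -1.23. With the library set aside put back they were -0.92, -1.15 and -0.76 and none was called (adjusted p of 0.185, 0.123 and 0.246).

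ASNS had 69.5 and 62.4 normalised CPM in the double knockdown, 96.7 and 86.3 in the PIP4K2A knockdown and 125 and 123 in the PIP4K2B knockdown, against 161.9 in the vector library. The 3 knockdowns did not overlap one another or the vector library. ASNS was 2.45-fold lower in the double knockdown (log2 -1.30, SE 0.0984, adjusted p = 2.34e-05), 1.77-fold lower in the PIP4K2A knockdown (-0.82, SE 0.0990, adjusted p = 0.000371) and 1.30-fold lower in the PIP4K2B knockdown (-0.38, SE 0.10, adjusted p = 0.0283). With ribosomal protein gene scaling the double knockdown kept its call at -1.02, while the PIP4K2A and PIP4K2B values were -0.51 and -0.22 and were not called. The call in the PIP4K2B knockdown was also lost in 8 of 14 fits that left out 1 library (-0.39 to -0.35 over the 14). With the library set aside put back the PIP4K2A and PIP4K2B values turned to 0.084 and 0.53 and none of the 3 was called.

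ATF4 itself had 272 and 267 normalised CPM in the double knockdown, 298 and 279 in the PIP4K2A knockdown and 298 and 321 in the PIP4K2B knockdown, against 386 in the vector library. It was 1.43-fold lower in the double knockdown (log2 -0.52, SE 0.0945, edgeR adjusted p = 0.00627) and 1.34-fold lower in the PIP4K2A knockdown (-0.42, SE 0.0947, adjusted p = 0.0178), and in the PIP4K2B knockdown its log2 fold change of -0.32 was not called (adjusted p = 0.0519). TRIB3, a pseudokinase that feeds back on ATF4, had 20.1 and 19.9 normalised CPM in the double knockdown, 19.97 and 24.2 in the PIP4K2A knockdown and 22.7 and 26.5 in the PIP4K2B knockdown, against 32.1 in the vector library. TRIB3 was called lower in the double knockdown (log2 -0.68, SE 0.139, adjusted p = 0.0114) and in the PIP4K2A knockdown (-0.54, SE 0.139, adjusted p = 0.0334), and had -0.38 in the PIP4K2B knockdown (adjusted p = 0.109). The calls in the PIP4K2A knockdown were lost in 7 of 14 fits that left out 1 library for each gene (-0.47 to -0.32 for ATF4 and -0.64 to -0.41 for TRIB3), and in the double knockdown without its untreated replicate 1 (-0.52 for ATF4 and -0.68 for TRIB3) and, for TRIB3, without its untreated replicate 2 (-0.68). Neither gene was called in any of the 3 comparisons with ribosomal protein gene scaling, and with the library set aside put back both turned positive in the double (0.38 for ATF4 and 0.016 for TRIB3) and PIP4K2A knockdowns (0.47 and 0.15). A fit on only the groups compared also lost both calls in the PIP4K2A knockdown (adjusted p of 0.17 and 0.104), whereas it called both in the PIP4K2B knockdown (0.0128 and 0.0278).

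The remaining 6 genes were not called in untreated cells by edgeR over the 15 libraries. SLC7A11, the cystine carrier, and PSAT1, an enzyme of serine synthesis, had the lowest of their values in the double knockdown, at log2 -0.82 (95% interval -1.36 to -0.28, edgeR adjusted p = 0.0747) and -0.78 (-1.25 to -0.30, adjusted p = 0.058). There DESeq2 called both lower (adjusted p of 0.0194 for SLC7A11 and 0.0156 for PSAT1), as did edgeR without a filter on low counts, on only the groups compared, or without either UV-treated PIP4K2A knockdown library. CHAC1, which degrades glutathione, had -0.56, -0.64 and -0.25 in the double, PIP4K2A and PIP4K2B knockdowns, with adjusted p of 0.216, 0.131 and 0.598. It was called lower in the double and PIP4K2A knockdowns without a filter (adjusted p of 0.0275 and 0.00537) and on only the groups compared (0.00534 and 0.043). DDIT3, which encodes the pro-death factor CHOP, had -0.26, -0.44 and -0.14, and SLC7A5 had -0.25, -0.12 and -0.29. SESN2, a leucine sensor that restrains mTORC1, had -0.23, 0.02 and 0.05, with 43.4 to 58.2 normalised CPM in the 6 knockdown libraries and 52.8 in the vector library.

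**Figure D2:**
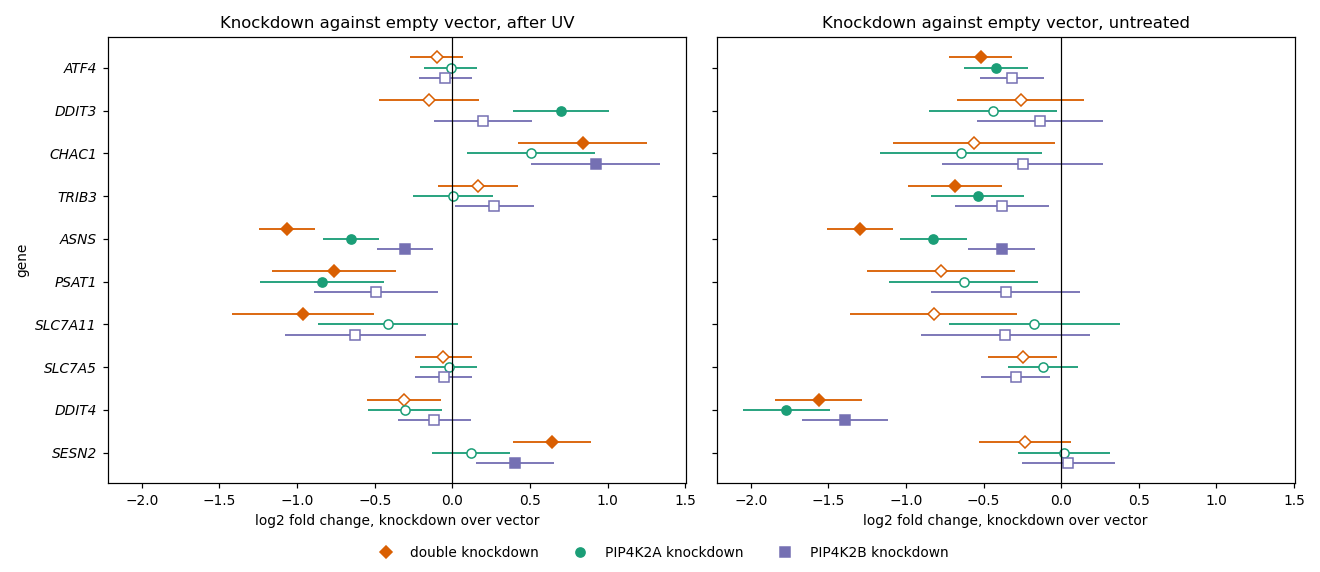
Log2 fold change of each gene, knockdown over empty vector (horizontal axes), after UV on the left and in untreated cells on the right, with 95% intervals from edgeR; orange diamonds are the double, green circles the PIP4K2A and violet squares the PIP4K2B knockdown, and filled symbols have an adjusted p under 0.05. DDIT4 lay at -1.77 to -1.39 in untreated cells and at -0.31 to -0.12 after UV, whereas ASNS was called lower in all 6 comparisons.

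The genes the hairpins target also changed after UV. PIP4K2A had log2 -1.01 in the double (edgeR adjusted p = 1.44e-05) and -0.90 in the PIP4K2A knockdown (adjusted p = 5.17e-05). PIP4K2B had -0.29 in the double (adjusted p = 0.0549) and -0.47 in the PIP4K2B knockdown (adjusted p = 0.00474). Vector cells had 0.03 for PIP4K2A and -0.18 for PIP4K2B. Any part of this in the UV results was not tested. Among the 10 genes UV was followed by changes in both directions. In the double knockdown 5 of 10 genes were called higher (19.1% of all genes tested) and 1 lower (16.1%), in the PIP4K2A knockdown 5 higher (16.6%) and 2 lower (14%), and in the PIP4K2B knockdown 5 higher (17.5%) and 1 lower (15.4%). In vector cells 2 were called higher (8.67%) and 3 lower (9.82%). Their median log2 fold change was 0.35, 0.33, 0.34 and 0.17 in the double, PIP4K2A and PIP4K2B knockdowns and vector cells, and that of all genes lay between 0.00 and 0.02. These directions hold relative to the bulk of genes: scaling to ribosomal protein genes put the median of all genes after UV at -0.85, -0.79, -0.90 and -0.70 in the same order, and ASNS then turned negative in all 4 lines, at -0.24, -0.23, -0.42 and -0.32.

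ATF4 was called higher after UV in each line. It had 565 and 553 normalised CPM in UV-treated double knockdown cells against 272 and 267 untreated, 621 and 569 against 298 and 279 in the PIP4K2A knockdown, and 592 and 569.7 against 298 and 321 in the PIP4K2B knockdown. Vector cells had 602 and 596 after UV against 386 untreated. In normalised CPM the 8 UV libraries lay above the 7 untreated ones without overlap. In TPM each knockdown stayed higher after UV, whereas vector cells had 246 and 254 after UV against 260 untreated. The log2 fold changes were 1.05 (SE 0.0793, edgeR adjusted p = 2.17e-06) in the double, 1.04 (SE 0.0792, adjusted p = 2.97e-06) in the PIP4K2A and 0.91 (SE 0.0791, adjusted p = 7.98e-06) in the PIP4K2B knockdown, and 0.64 (SE 0.0987, adjusted p = 0.000919) in vector cells. With ribosomal protein gene scaling they were 0.18, 0.23, 0.00 and -0.09 and none was called, each above the median of all genes under that scaling.

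CHAC1 and DDIT3 were called higher after UV in all 3 knockdowns and in neither case in vector cells. CHAC1 had 37.2 and 35.2 normalised CPM in UV-treated double knockdown cells against 9.97 and 10.4 untreated, 22.2 and 35.2 against 7.78 and 11.5 in the PIP4K2A knockdown, and 38.7 and 38.0 against 12.9 and 12.5 in the PIP4K2B knockdown. In vector cells it had 20.1 and 20.4 against 15.1. The folds were 3.55 (log2 1.83, SE 0.199, edgeR adjusted p = 3.2e-05), 2.98 (log2 1.58, SE 0.199, adjusted p = 0.000128) and 3.03 (log2 1.60, SE 0.196, adjusted p = 9.63e-05) in the double, PIP4K2A and PIP4K2B knockdowns, and 1.34 in vector cells (log2 0.43, 95% interval -0.10 to 0.95, adjusted p = 0.248). These 3 calls held under ribosomal protein gene scaling, at 0.96, 0.81 and 0.69.

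DDIT3 had 3.89 and 4.14 normalised CPM in UV-treated double knockdown cells against 2.83 and 2.65 untreated. In the PIP4K2A knockdown it had 7.49 and 7.0 after UV against 2.27 and 2.58, the highest values of the 15 libraries. In the PIP4K2B knockdown it had 5.33 and 4.87 after UV against 2.69 and 3.30, and in vector cells 4.28 and 4.62 against 3.30. In normalised CPM UV and untreated libraries did not overlap in any line. In TPM the PIP4K2A knockdown stayed higher after UV and the PIP4K2B knockdown overlapped. The double knockdown was then lower, at 2.59 and 2.73 against 3.25 and 2.93, as were vector cells, at 2.79 and 3.07 against 3.48. DDIT3 was 2.99-fold higher after UV in the PIP4K2A knockdown (log2 1.58, SE 0.150, edgeR adjusted p = 1.7e-05), with log2 fold changes of 0.55 (SE 0.154, adjusted p = 0.0152) in the double and 0.77 (SE 0.150, adjusted p = 0.00194) in the PIP4K2B knockdown. Vector cells had 0.44 (95% interval 0.03 to 0.84, adjusted p = 0.126). With ribosomal protein gene scaling the PIP4K2A value was 0.77 and called, while those of the double and PIP4K2B knockdowns turned to -0.33 and -0.14. In the double knockdown the call was also lost without either untreated library or without UV replicate 2 (log2 0.60, 0.50 and 0.50). DESeq2 did not call DDIT3 there either.

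SESN2 and TRIB3 were lower after UV. SESN2 had 20.6 to 32.6 normalised CPM in the 6 UV-treated knockdown libraries against 43.4 to 58.2 in the 6 untreated ones, and 18.8 and 22.0 in UV-treated vector cells against 52.8 untreated. It fell in every line, with log2 fold changes of -0.50 in the double knockdown (SE 0.114, edgeR adjusted p = 0.00461), -1.27 in the PIP4K2A knockdown (SE 0.115, adjusted p = 1.13e-05), -1.02 in the PIP4K2B knockdown (SE 0.114, adjusted p = 5.21e-05) and -1.37 in vector cells (SE 0.135, adjusted p = 3.71e-05). TRIB3 had 16.7 to 20.4 normalised CPM in the UV-treated knockdown libraries against 19.9 to 26.5 in the untreated ones, which overlap, and 15.6 and 17.9 in UV-treated vector cells against 32.1 untreated. It was called lower in the PIP4K2A knockdown (log2 -0.40, SE 0.117, edgeR adjusted p = 0.0221) and in vector cells (-0.94, SE 0.139, adjusted p = 0.000658), and had -0.09 and -0.29 in the double and PIP4K2B knockdowns, with adjusted p of 0.587 and 0.0791. The PIP4K2A value was not called without untreated replicate 2 (-0.30) or on only the groups compared (-0.43), and with ribosomal protein gene scaling TRIB3 was lower in all 4 lines, at -0.97, -1.19, -1.19 and -1.67.

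With TMM scaling DDIT4 was higher after UV in the knockdowns and lower in vector cells, whereas with ribosomal protein gene scaling it was negative in all 4 lines. The double knockdown had 36.2 and 38.3 normalised CPM after UV against 26.1 and 29.7 untreated, the PIP4K2A knockdown 39.1 and 35.6 against 21.5 and 26.8, and the PIP4K2B knockdown 43.3 and 41.8 against 31.0 and 31.7. Each knockdown was thus higher after UV with no overlap, with log2 fold changes of 0.42 (SE 0.111, edgeR adjusted p = 0.0112), 0.63 (SE 0.111, adjusted p = 0.00121) and 0.44 (SE 0.110, adjusted p = 0.00837). Vector cells had 44.7 and 47.5 normalised CPM after UV against 82.3 untreated, 1.79-fold lower (log2 -0.84, SE 0.129, adjusted p = 0.000881). Under ribosomal protein gene scaling the 3 knockdown values turned to -0.45, -0.17 and -0.47 and the vector value was -1.56, so the rises hold only relative to the bulk of genes. The call was lost in the double knockdown without untreated replicate 1 (0.33) or UV replicate 2 (0.37), and in the PIP4K2B knockdown without untreated replicate 1 (0.43) or UV replicate 1 (0.40). In the PIP4K2A knockdown it was lost in the fit on only the groups compared (0.60, adjusted p = 0.0797).

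ASNS was called higher after UV in each line by less, with log2 fold changes of 0.64 (SE 0.0838, edgeR adjusted p = 0.000125) in the double, 0.57 (SE 0.0832, adjusted p = 0.000334) in the PIP4K2A and 0.48 (SE 0.0829, adjusted p = 0.00086) in the PIP4K2B knockdown and 0.40 (SE 0.103, adjusted p = 0.0167) in vector cells. Its call in vector cells was lost when either UV-treated vector library was left out (log2 0.38 to 0.44), and that in the PIP4K2A knockdown on only the groups compared (0.54, adjusted p = 0.0779). PSAT1, SLC7A11 and SLC7A5 were not called in any line, with log2 fold changes between -0.19 and 0.28. With ribosomal protein gene scaling SLC7A5 was called lower in all 4 lines, at -0.69, -0.72, -0.68 and -0.73, SLC7A11 in the double, PIP4K2A and PIP4K2B knockdowns, at -0.94, -0.95 and -1.09, and PSAT1 in the PIP4K2A and PIP4K2B knockdowns, at -0.72 and -0.77. Of all 22597 genes 14707, 14444, 15160 and 10894 were called lower under that scaling in the double, PIP4K2A and PIP4K2B knockdowns and vector cells. In the PIP4K2A knockdown the UV-treated libraries of replicates 1 and 2 differed widely for PSAT1, at 47.6 and 82.9 normalised CPM, and for SLC7A11, at 128 and 239.7. Leaving out replicate 1 turned the PSAT1 value from 0.06 into a called 0.37 and leaving out replicate 2 into a called -0.40, and without replicate 2 SLC7A11 was called lower at -0.69.

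**Figure D3:**
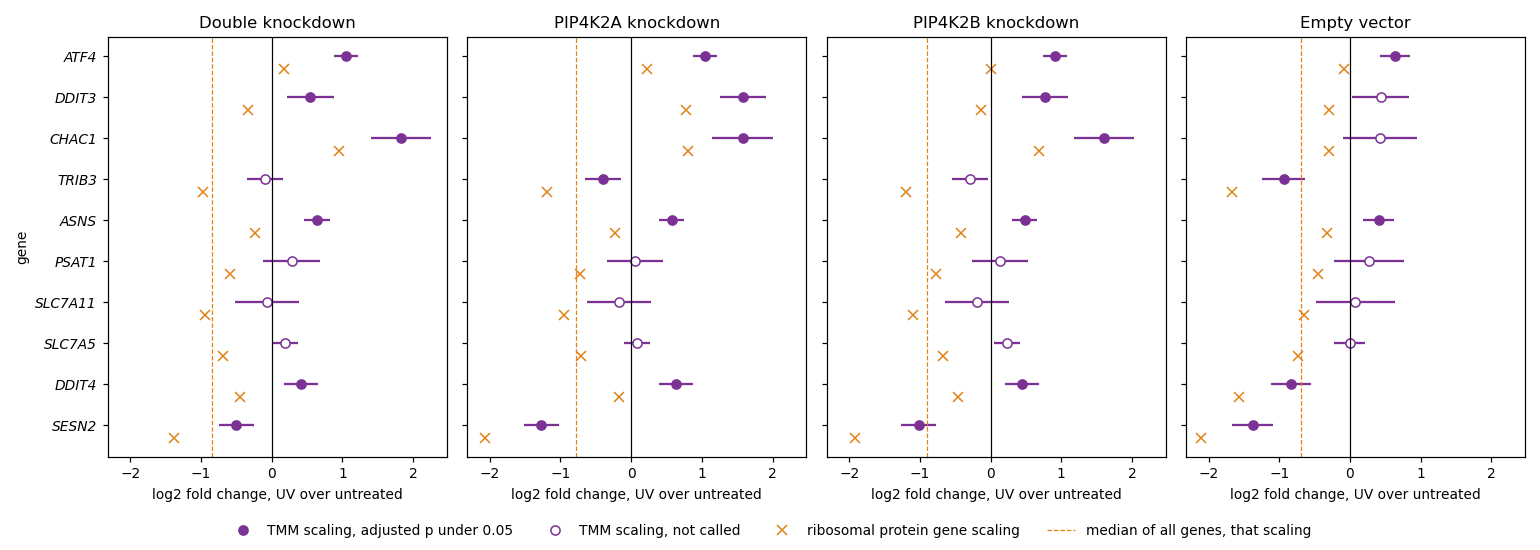
Log2 fold change of each gene, UV over untreated (horizontal axes), in the double, PIP4K2A and PIP4K2B knockdowns and empty-vector cells. Purple circles with 95% intervals are from TMM scaling, filled where called; orange crosses are from ribosomal protein gene scaling, whose median over all genes is the dashed line, and DDIT4 lay at 0.42, 0.63, 0.44 and -0.84 with TMM scaling.

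The UV response of DDIT4 was set against that of vector cells directly. In the PIP4K2A knockdown 1 of 10 genes was called higher and 0 lower, where 0.00443% of all genes were called each way. DDIT4 was itself the 1 gene of 22597 called higher, so that share is no background to set it against. Its difference in log2 fold change there was 1.47 (SE 0.171, edgeR adjusted p = 0.0151). In the double and PIP4K2B knockdowns it was 1.25 (SE 0.171, adjusted p = 0.0521) and 1.28 (SE 0.170, adjusted p = 0.0613), and there 0 of 10 genes were called in either direction, with 0% of all genes called higher and 0.00885% lower in the double knockdown and 0% either way in the PIP4K2B knockdown. At an unadjusted p under 0.05, 5, 5 and 4 of the 10 genes passed in the double, PIP4K2A and PIP4K2B knockdowns. The share of all genes at that threshold was not computed, so these counts carry no weight alone. DESeq2 called 3 and 1 of the 10 higher in the double and PIP4K2B knockdowns. Of all 22597 genes it called 5 higher and 13 lower in the double and 10 higher and 8 lower in the PIP4K2B knockdown. The 3 differences share the vector libraries and so the single untreated one. The call in the PIP4K2A knockdown was lost without untreated replicate 1 of that line (1.31), without either UV vector library (1.38 and 1.51) or without untreated replicate 1 of the PIP4K2B knockdown (1.47), and with the library set aside put back (0.87, adjusted p = 0.627). In fits on only the groups compared it was 1.46 and not called in the PIP4K2A knockdown (adjusted p = 0.7), while the differences of the double and PIP4K2B knockdowns were called, at 1.22 (adjusted p = 0.00205) and 1.28 (adjusted p = 0.00198). CHAC1 had differences of 1.40, 1.15 and 1.17 in the double, PIP4K2A and PIP4K2B knockdowns with adjusted p of 0.541, 0.901 and 0.624, so a difference in its response was not called. SESN2 had 0.87 in the double knockdown (adjusted p = 0.456), and DDIT3 1.14 in the PIP4K2A knockdown (adjusted p = 0.436).

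After UV, DDIT4 was called in 0 of the 3 knockdowns against vector over the 15 libraries. Its log2 fold changes were -0.31 (95% interval -0.55 to -0.07, edgeR adjusted p = 0.0787) in the double, -0.31 (-0.54 to -0.07, adjusted p = 0.0686) in the PIP4K2A and -0.12 (-0.35 to 0.12, adjusted p = 0.512) in the PIP4K2B knockdown. With a filter at 1 CPM it was called lower in the double (-0.34, adjusted p = 0.0448) and PIP4K2A knockdowns (-0.32, adjusted p = 0.046), and it was also called in the double on only the groups compared (-0.33, adjusted p = 0.00382). Leaving out 1 library called it in 4 fits for the double (-0.31) and 3 for the PIP4K2A knockdown (-0.39 to -0.31), each without a PIP4K2A knockdown library. Of the 10 genes 2 were called higher (8.5% of all genes) and 3 lower (6.86%) in the double knockdown, 1 higher (11.3%) and 2 lower (9.01%) in the PIP4K2A knockdown, and 2 higher (10.7%) and 1 lower (8.3%) in the PIP4K2B knockdown. ATF4 had -0.10, -0.01 and -0.04 and was called in 0 of the 3 comparisons.

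ASNS was again called lower in each knockdown after UV. It had 102 and 103 normalised CPM in UV-treated double knockdown cells, 133 and 139.8 in the PIP4K2A knockdown and 172 and 175 in the PIP4K2B knockdown, against 211 and 218 in UV-treated vector cells, with no overlap between the 4 lines. The log2 fold changes were -1.06 (SE 0.0837, edgeR adjusted p = 5.71e-06), -0.65 (SE 0.0829, adjusted p = 2e-04) and -0.31 (SE 0.0825, adjusted p = 0.0208), of which the last was not called with ribosomal protein gene scaling (-0.33) or in 6 of 15 fits that left out 1 library. PSAT1 had 69.8 and 68.0 normalised CPM in UV-treated double knockdown cells, 47.6 and 82.9 in the PIP4K2A knockdown and 81.3 and 84.8 in the PIP4K2B knockdown, against 121 and 112 in vector cells. All 6 knockdown libraries lay below both vector libraries, and PSAT1 was called lower in the double (log2 -0.76, SE 0.184, adjusted p = 0.0144) and PIP4K2A knockdowns (-0.84, SE 0.184, adjusted p = 0.0067). The PIP4K2A value was -0.51 without UV replicate 1 of that line and -1.30 without its UV replicate 2, and on only the groups compared neither it (-0.85, adjusted p = 0.124) nor that of ASNS there (-0.67, adjusted p = 0.0545) was called. SLC7A11 was called lower in the double knockdown, with 126 and 127 against 261 and 230.1 normalised CPM in vector cells (log2 -0.96, SE 0.210, adjusted p = 0.0084). Ribosomal protein gene scaling left PSAT1 and SLC7A11 uncalled in the double knockdown, at -0.64 and -0.84, and PSAT1 uncalled in the PIP4K2A knockdown, at -0.58. The calls of both in the double knockdown were also lost without UV vector replicate 1 (-0.70 and -0.86) or without either UV library of the line (-0.78 and -0.74 for PSAT1, -0.95 and -0.96 for SLC7A11).

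The genes called higher in knockdown cells after UV were CHAC1, SESN2 and DDIT3. CHAC1 was 1.79-fold higher in the double knockdown (log2 0.84, SE 0.191, edgeR adjusted p = 0.0103) and 1.90-fold higher in the PIP4K2B knockdown (log2 0.92, SE 0.191, adjusted p = 0.00475), and had 0.51 in the PIP4K2A knockdown (adjusted p = 0.0825). SESN2 had 32.6 and 31.1 normalised CPM in the double knockdown and 27.2 and 26.7 in the PIP4K2B knockdown, against 18.8 and 22.0 in vector cells. It was called higher in the double (log2 0.64, SE 0.116, adjusted p = 0.00261) and PIP4K2B knockdowns (0.40, SE 0.116, adjusted p = 0.0288). DDIT3 was called higher in the PIP4K2A knockdown alone of the 3 (log2 0.70, SE 0.143, adjusted p = 0.00437), with -0.15 in the double and 0.20 in the PIP4K2B knockdown, a call lost on only the groups compared (0.69, adjusted p = 0.0915). The call of CHAC1 in the double knockdown was lost without either UV vector library (0.83 and 0.85) or without its UV replicate 1 (0.81). That of SESN2 in the PIP4K2B knockdown was lost without UV vector replicate 1 (0.30) or either UV library of the line (0.39 and 0.43). Ribosomal protein gene scaling also left SESN2 uncalled in the PIP4K2B knockdown.

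Between the knockdown lines, whose comparisons need no vector library, ASNS was called in all 6 comparisons, 3 untreated and 3 after UV. In untreated cells ASNS was the 1 gene of 10 called in each. The targeted genes differed between these lines too. PIP4K2A was higher in the double than in the PIP4K2A knockdown. Its log2 differences were 0.46 untreated (edgeR adjusted p = 0.0112) and 0.35 after UV (adjusted p = 0.0291). PIP4K2B was lower in the double than in the PIP4K2B knockdown, at -0.51 (adjusted p = 0.00506) and -0.34 (adjusted p = 0.0498). Any part of this in the differences of ASNS was not tested. ASNS was lower in the double than in the PIP4K2A knockdown (log2 -0.47, SE 0.0837, edgeR adjusted p = 0.00432, with 3.53% of all genes called higher and 3.57% lower) and lower than in the PIP4K2B knockdown (-0.91, SE 0.0839, adjusted p = 1.63e-05, with 7.32% called higher and 8.06% lower). It was higher in the PIP4K2B than in the PIP4K2A knockdown (0.44, SE 0.0832, adjusted p = 0.0127, with 1.45% called higher and 1.71% lower). After UV the same 3 differences of ASNS were -0.41 (adjusted p = 0.00474), -0.76 (adjusted p = 5.43e-05) and 0.35 (adjusted p = 0.0154). On only the groups compared the first and last of these after UV were -0.41 and 0.36 and not called (adjusted p of 0.0908 and 0.174). With ribosomal protein gene scaling the differences between the double and PIP4K2B knockdowns stayed called, at -0.79 untreated and -0.61 after UV, while those between the PIP4K2B and PIP4K2A knockdowns were 0.28 and 0.09 and were not called. Under that scaling the double against the PIP4K2A knockdown gave -0.51 untreated (adjusted p = 0.0576) and -0.52 after UV (adjusted p = 0.024). Each of these calls but those between the double and PIP4K2B knockdowns was lost in 1 to 3 of 15 fits that left out 1 library, always one of the lines compared. Over those fits the double against the PIP4K2A knockdown ranged from -0.58 to -0.39 untreated and from -0.43 to -0.37 after UV, and the PIP4K2B against the PIP4K2A knockdown from 0.33 to 0.52 and from 0.33 to 0.39.

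After UV 3 of 10 genes were called in the double against the PIP4K2A knockdown (9.81% of all genes higher and 9.71% lower), 1 in the double against the PIP4K2B knockdown (8.64% higher and 9.09% lower) and 2 in the PIP4K2B against the PIP4K2A knockdown (7.81% higher and 6.6% lower). Besides ASNS these were DDIT3 and SESN2. DDIT3 was lower in the double than in the PIP4K2A knockdown (log2 -0.85, SE 0.145, edgeR adjusted p = 0.00167) and lower in the PIP4K2B than in the PIP4K2A knockdown (-0.51, SE 0.142, adjusted p = 0.0331), the second lost in 7 of 15 fits that left out 1 library (-0.56 to -0.42 over the 15). SESN2 was higher in the double than in the PIP4K2A knockdown (0.52, SE 0.116, adjusted p = 0.00753), a call lost without UV replicate 1 of the double knockdown (0.51) and with ribosomal protein gene scaling (0.41). On only the groups compared none of these 3 calls of DDIT3 and SESN2 was made (adjusted p of 0.0585, 0.179 and 0.0907). DESeq2 and edgeR without a filter on low counts also left DDIT3 uncalled in the PIP4K2B against the PIP4K2A knockdown. DDIT4 was called in none of the 6 comparisons between knockdowns, with log2 differences between -0.19 and 0.38.

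Other genes of the pathway were read from lists that do not hold the 10. Of 16 other ATF4 targets in amino acid metabolism and transport, 6, 9 and 11 were called lower and 0 higher in the untreated double, PIP4K2A and PIP4K2B knockdowns, with median log2 fold changes of -0.49, -0.54 and -0.60, where 2.96%, 4.13% and 4.99% of all genes tested were called lower. Under ribosomal protein gene scaling 4, 5 and 8 were lower and 0 higher, where 220, 300 and 544 of all 22597 genes were lower. ALDH1L2, a mitochondrial folate enzyme, had log2 fold changes of -1.11, -1.49 and -1.45, with edgeR adjusted p of 0.000206, 2.36e-05 and 1.49e-05. CBS, which makes cystathionine from serine and homocysteine, had -0.92, -1.40 and -1.04, with adjusted p of 0.0499, 0.00494 and 0.0194. PHGDH, the first enzyme of serine synthesis, had -0.83, -0.83 and -0.64, with adjusted p of 0.00835, 0.00783 and 0.023. SLC1A5, a glutamine carrier, had -0.82, -0.75 and -0.75, with adjusted p of 0.00201, 0.00319 and 0.00236. Among UV-treated cells 6, 8 and 7 of the 16 were called lower than in vector cells (6.86%, 9.01% and 8.3% of all genes) and 0 higher. UV itself was followed by 6, 5 and 6 higher in the double, PIP4K2A and PIP4K2B knockdowns and 3 in vector cells (19.1%, 16.6%, 17.5% and 8.67% of all genes), with 2 lower in each (16.1%, 14%, 15.4% and 9.82%). With ribosomal protein gene scaling 0 were higher and 14, 14, 14 and 12 lower. That scaling called 14707, 14444, 15160 and 10894 of all 22597 genes lower, so most of this shift is shared with other genes. SHMT2, a mitochondrial serine enzyme, had 0.99, 0.77, 0.94 and 0.63, and SLC38A2, a neutral amino acid carrier, -1.54, -1.39, -1.49 and -1.14.

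Of 20 cytosolic aminoacyl-tRNA synthetases, several of which are ATF4 targets, 6, 8 and 4 were called lower (2.96%, 4.13% and 4.99% of all genes) and 0, 1 and 1 higher (3.24%, 3.71% and 5.26%) in the untreated double, PIP4K2A and PIP4K2B knockdowns against vector. CARS1, the cysteine enzyme, had log2 fold changes of -0.61, -0.64 and -0.60, with edgeR adjusted p of 0.00282, 0.00185 and 0.00209. Under ribosomal protein gene scaling 0, 0 and 1 were called lower, as were 220, 300 and 544 of all 22597 genes. After UV 15, 14 and 10 were called higher and 0 lower in the double, PIP4K2A and PIP4K2B knockdowns, and 2 higher and 0 lower in vector cells, where 19.1%, 16.6%, 17.5% and 8.67% of all genes were called higher. Under ribosomal protein gene scaling 0 synthetases were called higher and 19, 16, 20 and 17 lower, as were 14707, 14444, 15160 and 10894 of all 22597 genes. The difference between the lines in the count of synthetases was not tested.

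**Figure D4:**
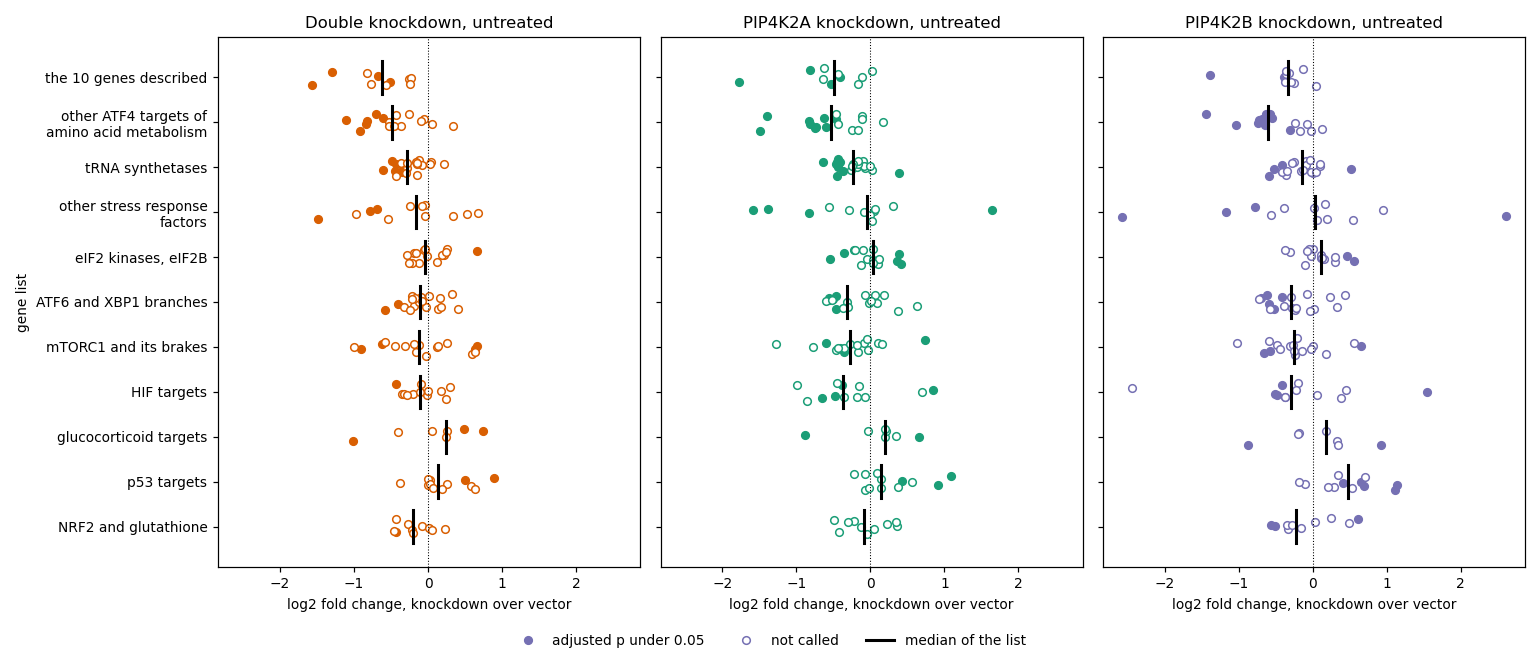
Log2 fold change, knockdown over empty vector in untreated cells (horizontal axes), of the 10 genes and of 10 lists of related genes (rows), for the double, PIP4K2A and PIP4K2B knockdowns. Each circle is a gene, filled where its adjusted p is under 0.05, and black bars are medians; those of the 16 other ATF4 targets of amino acid metabolism lie at -0.49, -0.54 and -0.60.

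The other factors and feedback genes of the integrated stress response, 12 in number, moved in both directions: 0, 1 and 1 were called higher (3.24%, 3.71% and 5.26% of all genes) and 3, 3 and 3 lower (2.96%, 4.13% and 4.99%) in the untreated double, PIP4K2A and PIP4K2B knockdowns, against 2, 2 and 2 higher and 1, 1 and 2 lower with ribosomal protein gene scaling. Under that scaling 1760, 2311 and 1297 of all 22597 genes were called higher and 220, 300 and 544 lower. GDF15, a secreted stress hormone that p53 also controls, was higher in the PIP4K2A (log2 1.65, edgeR adjusted p = 0.0055) and PIP4K2B knockdowns (2.61, adjusted p = 0.000142). FGF21, a hormone that ATF4 controls, was lower, at -1.48, -1.38 and -2.58, with adjusted p of 0.0257, 0.0286 and 0.00111. After UV GDF15 was higher in each line, at 3.37, 2.71, 3.10 and 3.52 in the double, PIP4K2A and PIP4K2B knockdowns and vector cells, with adjusted p between 3.38e-07 and 7.54e-06.

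The upstream kinases and initiation factors, 15 genes, gave 1, 3 and 2 called higher (3.24%, 3.71% and 5.26% of all genes) and 0, 2 and 0 lower (2.96%, 4.13% and 4.99%) in the untreated double, PIP4K2A and PIP4K2B knockdowns, against 2, 3 and 2 higher and 0 lower with ribosomal protein gene scaling. Under that scaling 1760, 2311 and 1297 of all 22597 genes were called higher and 220, 300 and 544 lower. EIF2AK4, which encodes GCN2, was higher in untreated knockdown than in vector cells, at log2 0.66, 0.41 and 0.56 (edgeR adjusted p of 0.00106, 0.0141 and 0.00179), and after UV at 0.79, 0.60 and 0.68 (adjusted p of 1.71e-05, 0.000138 and 4.17e-05). Of 17 tested genes of mTORC1 and its brakes, 2, 1 and 1 were called higher (3.24%, 3.71% and 5.26% of all genes) and 2, 2 and 2 lower (2.96%, 4.13% and 4.99%) in untreated knockdown cells, and 4, 1 and 0 higher and 0, 0 and 2 lower with ribosomal protein gene scaling. SESN1, a p53 target and relative of SESN2, was higher at 0.63, 0.73 and 0.66, with adjusted p of 0.0422, 0.0174 and 0.0238. Of 12 p53 targets 2, 3 and 5 were called higher (3.24%, 3.71% and 5.26% of all genes) and 0 lower, against 2, 5 and 7 higher and 0 lower with ribosomal protein gene scaling. ZMAT3 among them had 0.89, 1.09 and 1.14, with adjusted p of 0.0014, 0.000321 and 0.000145.

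In the untreated double, PIP4K2A and PIP4K2B knockdowns 2.96%, 4.13% and 4.99% of all genes were called lower than in vector cells and 3.24%, 3.71% and 5.26% higher. Of 18 genes of the ATF6 and XBP1 branches of the unfolded protein response 2, 5 and 5 were lower and 0 higher in the double, PIP4K2A and PIP4K2B knockdowns. Of 12 targets of the hypoxia factor, which also controls DDIT4, 1, 3 and 3 were lower and 0, 1 and 1 higher. Of 7 tested genes of the glucocorticoid receptor and its targets 2, 1 and 1 were higher and 1, 1 and 1 lower, and of 10 NRF2 and glutathione genes 0, 0 and 1 were higher and 1, 0 and 2 lower. With ribosomal protein gene scaling the lower counts of these 4 lists were 0, 0 and 2, then 0, 0 and 0 for both the hypoxia and glucocorticoid lists, and 0, 0 and 1. Of all 22597 genes 220, 300 and 544 were called lower under that scaling.

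Across the 15 libraries the 10 genes did not move as a block. Pearson's r of log2 CPM was 0.88 between ATF4 and CHAC1, 0.87 between ATF4 and DDIT3, 0.81 between TRIB3 and SESN2 and 0.81 between ASNS and PSAT1. It was -0.90 between ATF4 and SESN2 and 0.55 between DDIT4 and ATF4. These values describe 15 libraries that fall into UV and untreated groups and share a scaling. Among 11302 genes the profile most like that of DDIT4 was GPT2 (r 0.90), followed by RRP1B, AIMP2, TGM1 and MCM3AP (0.86 to 0.88). DDIT4 stood at 82.3 normalised CPM in the untreated vector library and at 47.5 or less in the others. That 1 library thus weighs heavily on these r values, which were not computed without it. For ASNS the most alike was ERLIN1 (0.96), then SUSD5, TBC1D5, TMEM43 and ADGRA2 (0.94 to 0.96). For ATF4 the most alike was FOS (0.99), then PXMP2, RPS4X, UQCC4 and SLC25A5 (0.98 to 0.99).

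The transcript length deposited for each gene, an average over its isoforms by abundance, was also compared between UV-treated and untreated cells, since the study asked about splicing. In limma 0 of 36 tests on 9 of the genes in 4 lines were called after Benjamini-Hochberg adjustment, where 2.44%, 2.23%, 1.51% and 0.78% of genes were called in the double, PIP4K2A and PIP4K2B knockdowns and vector cells. Before adjustment 3 tests were under 0.05, those of DDIT3 in the double, SLC7A5 in the PIP4K2A and ATF4 in the PIP4K2B knockdown, with log2 length changes of -0.04, -0.05 and 0.04. SESN2 has the same length of 3462 bases in every library and was not tested.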

How the data were processed

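Per the labels' protocols, ribosomal RNA was removed from U2OS RNA and a strand-marking kit gave 16 libraries. Each deposited table gives, per gene, the authors' expected count, TPM and isoform-weighted transcript length, with column names of RSEM output per the file headers. STAR, SAMtools, RSEM and GRCh38 are named in the submitters' processing notes; for versions, annotation release and the strand setting, nothing is given in the sources used here. The length is a deposited number of bases, another measure beside the authors' expected count.

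The 10 genes and the lists were chosen with earlier results of these data known. Symbols were matched to Ensembl IDs, for 60437 of 60666 IDs, and 58420 IDs had a position in GENCODE 29. Expected counts were rounded, filtered with filterByExpr at a minimum count of 10 and scaled by TMM. edgeR 4.0.16 in R 4.3.3 fitted 1 term for each group over 15 libraries and 22597 genes by quasi-likelihood, with Benjamini-Hochberg adjustment over all genes and a biological coefficient of variation of 11.3%. SE was taken from the fold change and its F statistic. Intervals are 95% and cover the spread between libraries. TPM was used to set levels of different genes side by side and to describe the library set aside. It was also set beside normalised CPM for ATF4, DDIT3 and DDIT4 after UV. Length was tested as log2 bases with limma 3.58.1. The main edgeR fit was tried on simulated counts for UV in vector cells, UV in the PIP4K2A knockdown and that untreated knockdown against vector. The length test was tried on simulated log2 lengths. Other comparisons and settings were not simulated. Depth was 28002912 to 39873512 expected counts in the 15 libraries.

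All 10 genes are named. Of each list the text names genes from up to 4 called with the largest change and a mean of at least 1 CPM, and for DDIT4, ASNS and ATF4 the 5 genes of highest Pearson r among those of at least 5 CPM. Alternatives were DESeq2 1.42.0, RLE size factors, scaling to the genes of 77 cytosolic ribosomal proteins, a filter at 1 CPM in 2 libraries or none, all 16 libraries, a fit on the compared groups alone, a block for the replicate number, and each library left out in turn. Tables and figures were made with Python 3.11.15, pandas 2.3.3, numpy 2.4.6 and matplotlib 3.10.9. Promoter windows are from RefSeq on GRCh38.p14.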

Additional observations from a re-analysis of the deposited data

Results flagged for a closer look

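With TMM scaling DDIT4 was higher after UV in PIP4K2A knockdown cells and lower in vector cells, whereas with ribosomal protein gene scaling both values were negative, at -0.17 and -1.56. The difference of 1.47 on the log2 scale passed edgeR's quasi-likelihood test of the difference itself (95% interval 1.10 to 1.84, adjusted p = 0.0151). It was not called on only the groups compared (1.46, adjusted p = 0.7), with all 16 libraries (0.87, adjusted p = 0.627) or in 4 fits that left out 1 library. The differences of the double and PIP4K2B knockdowns were 1.25 and 1.28 (adjusted p of 0.0521 and 0.0613). Both UV-treated libraries of the PIP4K2A knockdown lay above both untreated ones, at 35.6 and 39.1 against 21.5 and 26.8 normalised CPM, and both UV-treated vector libraries lay below the 1 untreated vector library, at 44.7 and 47.5 against 82.3. The value in untreated vector cells rests on that 1 library.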

How the results depend on the processing

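Of 190 gene and comparison pairs 55 were called, and 2 of these were called under every setting, DDIT3 after UV in the PIP4K2A knockdown and CHAC1 after UV in the double knockdown. RLE size factors and a filter at 1 CPM left all 55 on the same side with the same direction. DESeq2 lost 2, no filter 3, fits on only the groups compared 14, ribosomal protein gene scaling 18 with 10 more reversed, and all 16 libraries 47 with 6 more reversed. The cause was not tested.

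With all 16 libraries the genes called fell to 1 after UV in the double and PIP4K2A knockdowns and to 0 after UV in the PIP4K2B knockdown and vector cells, in each knockdown against vector, in the DDIT4 response difference and between knockdowns. Calls over all 22090 genes were then few too. UV gave 36, 21, 30 and 209 higher and 231, 97, 143 and 2433 lower in the double, PIP4K2A and PIP4K2B knockdowns and vector cells. Each other comparison gave at most 99 higher and 84 lower. Against vector in untreated cells the setting with all 16 libraries reversed ATF4 (0.38 in the double, 0.47 in the PIP4K2A knockdown), TRIB3 (0.016 and 0.15) and ASNS (0.084 in the PIP4K2A, 0.53 in the PIP4K2B knockdown), with adjusted p of 0.662 to 0.987. Ribosomal protein gene scaling gave 2, 1 and 1 genes called in the untreated double, PIP4K2A and PIP4K2B knockdowns, 3 and 1 after UV in the double and PIP4K2B knockdowns, and 0 between untreated double or PIP4K2B and PIP4K2A knockdowns. Over all 22597 genes it called, in the same order, 1760, 2311, 1297, 2731, 1889, 511 and 104 higher. It called 220, 300, 544, 769, 1491, 548 and 567 of them lower. After UV it reversed ATF4 in vector cells (-0.091), ASNS in the double, PIP4K2A and PIP4K2B knockdowns and vector cells (-0.24, -0.23, -0.42 and -0.32), DDIT4 in the 3 knockdowns (-0.45, -0.17 and -0.47) and DDIT3 in the double and PIP4K2B knockdowns (-0.33 and -0.14).

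Without a filter 7 and 1 genes were called in the untreated double and PIP4K2B knockdowns, 5 after UV in the PIP4K2A knockdown, 4, 2 and 2 in the response differences of the double, PIP4K2A and PIP4K2B knockdowns, 2 and 3 in the untreated double against the PIP4K2A and PIP4K2B knockdowns, and 2 in the double against the PIP4K2B knockdown after UV. Over all 40269 genes the same comparisons, in this order, had 964, 1523, 2827, 62, 130, 137, 1002, 1782 and 2187 called higher. They had 944, 1372, 2331, 66, 101, 92, 980, 2044 and 2285 called lower. DESeq2 called 5 after UV in the PIP4K2B knockdown, 3 and 1 in the response differences of the double and PIP4K2B knockdowns, 2 in the untreated double against the PIP4K2A knockdown and 1 in the PIP4K2B against the PIP4K2A knockdown after UV. Of all 22597 genes it called, in the same order, 2222, 5, 10, 857 and 1679 higher and 1582, 13, 8, 727 and 1462 lower. With only the groups compared there were 4 for UV in the PIP4K2A knockdown, 7 and 7 in the untreated double and PIP4K2B knockdowns, 0 and 5 after UV in the PIP4K2A and PIP4K2B knockdowns, and 3, 0 and 2 in the response differences of the double, PIP4K2A and PIP4K2B knockdowns. Over all genes these comparisons, in the same order, had 475, 1798, 2449, 253, 3744, 9, 0 and 87 called higher. They had 1082, 1745, 2192, 254, 3407, 20, 0 and 29 called lower. Between knockdowns that setting gave 2 and 4 in the untreated double against PIP4K2A and PIP4K2B, and 0, 5 and 0 after UV in the double against PIP4K2A, the double against PIP4K2B and PIP4K2B against PIP4K2A. Over all genes these 5 gave 753, 2403, 282, 4159 and 1 higher and 714, 2556, 157, 4181 and 6 lower.

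Leaving out 1 library in turn gave 4 to 8, 6 to 9, 5 to 8 and 4 to 6 genes called for UV in the double, PIP4K2A and PIP4K2B knockdowns and vector cells, 2 to 7, 2 to 6 and 1 to 6 in the untreated knockdowns against vector in the same order, and 2 to 6, 3 to 5 and 1 to 5 after UV. The response differences had 0 to 2, 0 to 6 and 0 to 2. Between double and PIP4K2A, double and PIP4K2B, and PIP4K2B and PIP4K2A knockdowns there were 0 to 2, 1 to 5 and 0 to 2 untreated and 1 to 5, 1 to 3 and 0 to 5 after UV. Transcript length had 0 calls in each. In each of these comparisons of levels and responses the highest count came without one or the other UV-treated PIP4K2A knockdown library, in some tied with another fit, and a group left with 1 library was assumed to vary like the others. Calls over all genes in these fits are not given here, so the counts cannot be set against them.

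Differences between replicates 1 and 2 correlated weakly from group to group over all genes tested (21 pairs of 7 groups, r of -0.12 to 0.19, 3 over 0.1). Counting noise also lowers such r, and the labels do not say what the numbers stand for, so whether they pair libraries could not be told. A fit with the replicate number as a block left 54 of the 55 calls and lost TRIB3 in the untreated PIP4K2A knockdown; the DDIT4 response difference there was 1.43 (adjusted p = 0.0469). Depth was lowest for DDIT3, with 80.6 expected counts in its lowest library; the smallest change detectable there was not computed.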
